A study of Homo sapiens with 10 samples.

Results

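The clustered histone genes are the genes of the core histones H2A, H2B, H3 and H4 and of the linker histone H1 that lie together in a few genomic clusters. They were taken here as all lines of the count table whose symbol begins with HIST, a cluster number and H, without the symbols that end in PS, which mark pseudogenes. The rule found 76 genes of 58735 lines and left out 14 symbols. Of the 76 genes, 55 belong to the HIST1 cluster on chromosome 6, 16 to the HIST2 cluster and 4 to the HIST3 cluster on chromosome 1, and 1 is HIST4H4 on chromosome 12. By type there were 6 H1, 17 H2A, 23 H2B, 15 H3 and 15 H4 genes. GENCODE annotates 6 of the 76 as pseudogenes although their symbols passed the rule, among them HIST2H2BC and HIST2H2BD.

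The libraries came from HCMECs, a human brain endothelial cell line. In 5 libraries the cells carried a control siRNA (siCtrl) and in 5 an siRNA against USP9X (siUSP9X), a deubiquitinase, which removes ubiquitin from other proteins. The siRNAs were on the cells for 48 h and both groups then received Wnt3a, a Wnt ligand, for 12 h, so no group is without Wnt3a. Whether each library had a culture of its own is not in the labels, and p-values then measure only how far these libraries spread, which can be technical. Nor do they name the siRNA sequences or a second siRNA. Of 12 endothelial markers, ERG was at 0 in every library, PECAM1 had 8 counts in each group and VWF had 5 and 4. In siCtrl and siUSP9X, KDR had 4 and 2 counts, TEK 1 and 4, TIE1 3 and 5, and CLDN5 22 and 6. CDH5 had 53 and 74, and only ESAM, ENG, EGFL7 and PROCR were well measured.

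Histone genes of this kind are switched on in S phase, when new DNA is packed into nucleosomes. Their mRNAs have no introns as a rule and usually end, without a poly(A) tail, just after a conserved stem-loop in the 3′ UTR, which the stem-loop binding protein SLBP recognizes. Some of these genes also give a longer mRNA that runs past the stem-loop and carries a poly(A) tail, and such forms are known from cells that have stopped dividing or are differentiating. The libraries were made with a kit for mRNA, which captures poly(A) tails, so tailless histone mRNA is expected to be captured poorly and the levels given here are those of captured RNA.

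The stem-loop was looked for in the GENCODE 29 transcripts (GRCh38) of each gene as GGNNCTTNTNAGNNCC on the transcript's own strand. It was found in 35 of the 76 genes (46.1%), against 185 of 58721 annotated genes (0.315%). The sites of the 6 genes that rose with siUSP9X and of 2 abundant genes are shown. Each is written 5′ to 3′ as DNA, with the 16 letters of the match in capitals and 7 bases of flank on either side. The positions are those of the capitals.
HIST1H2BC, chr6:26123472-26123487, minus strand: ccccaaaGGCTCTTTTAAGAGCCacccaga
HIST1H2AG, chr6:27133515-27133530, plus strand: aaccaacGGCTCTTTTCAGGGCCacccacg
HIST2H2BE, chr1:149886188-149886203, minus strand: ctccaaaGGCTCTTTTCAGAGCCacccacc
HIST1H2BG, chr6:26216218-26216233, minus strand: actcaaaGGCTCTTTTCAGAGCCactcaag
HIST1H2AI, chr6:27808647-27808662, plus strand: aaccaaaGGCTCTTTTCAGAGCCacctaca
HIST1H2BF, chr6:26199968-26199983, plus strand: tcccaaaGGCTCTTTTAAGAGCCacccact
HIST1H2AC, chr6:26124669-26124684, plus strand: acccaaaGGCTCTTTTCAGAGCCcccctac
HIST1H4I, chr6:27139654-27139669, plus strand: ctaaaaaGGCCCTTTTTAGGGCCcctaagc

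The commonest form, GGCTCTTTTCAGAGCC, was that of 18 of the 35 genes and of HIST2H2BE, HIST1H2BG, HIST1H2AI and HIST1H2AC. The form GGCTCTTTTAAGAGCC of HIST1H2BC and HIST1H2BF was that of 5 genes, and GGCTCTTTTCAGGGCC of HIST1H2AG that of 3. HIST1H4I carried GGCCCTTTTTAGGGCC, also found in 3 genes.

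How many genes of a kind could be measured varied with how far the annotated transcript runs past the stem-loop. In 25 genes the longest run after the stem-loop was over 100 bases, and 23 of these (92.0%) had enough counts to be tested, with a median of 698 counts over the 10 libraries. In 10 genes the annotated transcripts that hold the stem-loop end within 100 bases of it. Of these 10, 5 were tested, with a median of 117.5 counts. HIST1H2BD, among them, also has an annotated transcript of 789 bases without the stem-loop, which these classes leave out of account. No stem-loop was annotated in the other 41 genes, 32 of which are annotated as their coding region alone. Of these 41, 5 (12.2%) were tested, and their median was 14.0 counts. Among the 25 genes with a long run, 20 have a poly(A) signal, AATAAA or ATTAAA, after the stem-loop. Reads counted over a longer annotated exon also add up to more counts, so annotated length moves with these classes, and its part in them was not tested. HIST1H2BK, HIST1H1C and HIST1H2BJ had no annotated stem-loop and yet more counts than that median of 698, namely 6624, 5885 and 1054 in siCtrl alone.

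**Figure D1:**
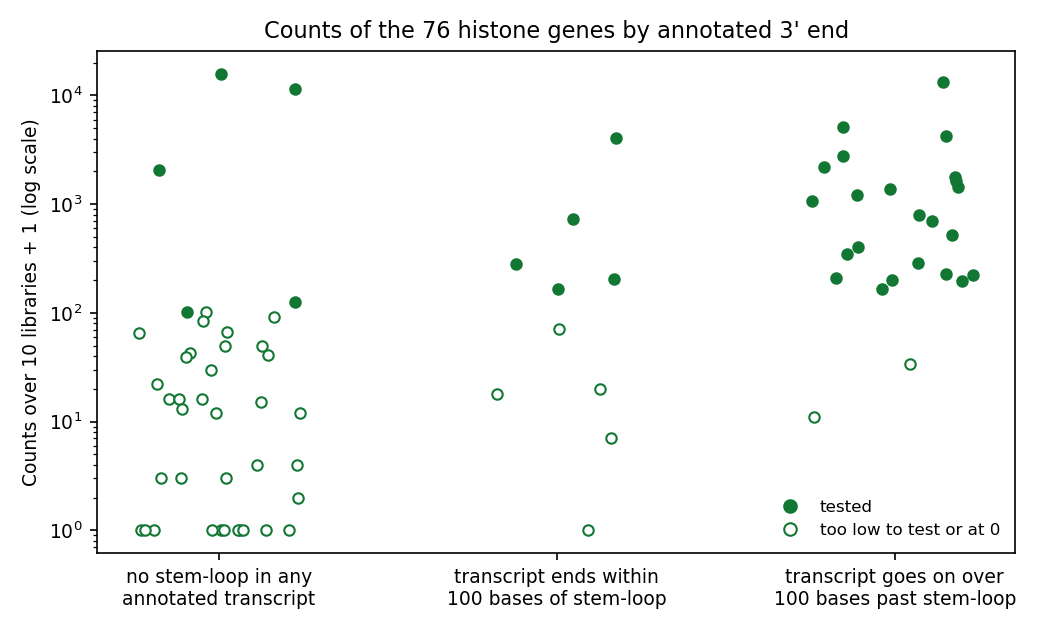
Counts of each of the 76 clustered histone genes summed over the 10 libraries plus 1 (log scale). Genes are placed by how far annotated transcripts that hold the stem-loop run past it, with genes without one on the left. Filled points were tested and open points were too low to test or at 0. Of the 25 genes on the right 23 are filled, against 5 of the 41 on the left.

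Of the 76 genes, 12 were at 0 in all 10 libraries, 31 had counts but too few to be tested, and 33 passed the filter on low counts. The filter asks for about 10 counts in at least 5 libraries and kept 13934 lines in all. Levels are given as CPM, counts per 1e+06 counts of a library scaled by its TMM factor. Histone genes held 0.0244% to 0.0564% of a library's counts, and HIST1H2BK, HIST1H2AC and HIST1H1C held 53.2% of the summed histone CPM. Per kb of annotated exon, in siCtrl, HIST1H2BK stood at 172 CPM per kb, HIST1H1C at 91.5, HIST1H2AC at 38.4 and HIST1H4I at 17.7. HIST2H2BE, HIST1H2BC and HIST1H2AG stood at 8.32, 6.88 and 4.38. HIST1H2BK and HIST1H1C are annotated as their coding region alone, 381 and 642 bases, while HIST2H2BE and HIST1H2AG have 2194 and 2250 bases. This order therefore depends on the annotated length, whose part in it was not tested.

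The 10 libraries held between 15.96 and 26.47 times 1e+06 counts. USP9X fell from 340 ± 48.5 CPM to 35.1 ± 19.8 CPM (SD, n = 5 each; log2 fold change -3.28 ± 0.32 SE, edgeR adjusted p = 0.000403), and its groups did not overlap. The library siUSP9X replicate 2 stood apart from the other 9. Ribosomal protein genes held 2.15% of its counts against 4.48% to 6.45%, the mitochondrial ribosomal RNA MT-RNR2 held 1.40% against 0.38% to 0.573%, and its USP9X level was 68.7 CPM, the highest of the 5 siUSP9X libraries. Counts of calls and the genes that rest on this library are therefore given with and without it. Of 18 RNAs listed as having no poly(A) tail, 17 were found and 3 were tested, and none was called in either direction. Their summed level was 6.62 to 23.5 CPM in siCtrl and 2.27 to 11.7 CPM in siUSP9X, lowest in replicate 2. RN7SL2 held the largest part of it, with means of 12.3 and 4.04 CPM. The part of these differences in the histone levels was not tested. In samples of many cells, fewer cells of a kind and less RNA per cell cannot be told apart.

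Clustered histone mRNA was higher in 4 of the 5 siUSP9X libraries than in every siCtrl library. The summed level of all 76 genes was 339, 387, 359, 353 and 343 CPM in siCtrl replicates 1 to 5 and 480, 275, 526, 554 and 535 CPM in siUSP9X replicates 1 to 5. The siCtrl mean was 356 ± 18.7 CPM and the siUSP9X mean 474 ± 114 CPM (SD, n = 5 each). Without siUSP9X replicate 2, which lay below every other library, the siUSP9X mean was 524 ± 31.7 CPM (n = 4), 1.47 times the siCtrl mean.

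Of the 33 tested genes, 6 rose with siUSP9X and none fell, by the edgeR quasi-likelihood test with Benjamini-Hochberg adjustment over all tested genes. Over all tested genes, 4.09% rose and 3.22% fell. None of the 33 was lower at an unadjusted p under 0.05, where the share over all genes was 11.9%, and none was called lower by DESeq2 (7.89% over all genes) or by limma-voom (3.52%). The 6 that rose were HIST1H2BC, HIST1H2AG, HIST2H2BE, HIST1H2BG, HIST1H2AI and HIST1H2BF, 2 H2A and 4 H2B genes. The median log2 fold change of the 33 was 0.388, with a range of -0.261 to 1.32 and 28 values above 0, against a median of 0.026 over all tested genes. In 7 genes every siUSP9X library lay above every siCtrl library, against 7.79% over all genes, and in 0 genes below, against 6.85%.

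Without siUSP9X replicate 2, 16 of the 33 genes rose, all 6 above among them, and none fell. Over all tested genes 11.9% then rose and 11.5% fell, and the median log2 fold change was 0.443 for the histone genes and 0.00718 over all genes. The groups then did not overlap in 14 genes with siUSP9X above and in 0 with siUSP9X below, against 10.4% and 9.54% over all genes. Replicate 2 held the lowest value of the 10 libraries in 16 of the 33 genes and the highest in 5.

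Other libraries also decided calls. The number that rose was 4 without siCtrl replicate 1 and 3 without siUSP9X replicate 4 or 5. It was 2 without siCtrl replicate 2, 3, 4 or 5 or siUSP9X replicate 1 or 3. Calls fell over the whole table too, where 570 genes rose with all libraries. That count was 389, 198, 170, 192 and 218 without siCtrl replicates 1 to 5 in turn. Without siUSP9X replicates 1, 3, 4 and 5 it was 369, 345, 516 and 285. HIST1H2BC and HIST1H2AG passed the threshold in all 10 fits that each left out 1 library. HIST1H2AI passed in 3 of them, HIST1H2BF in 2, and HIST2H2BE and HIST1H2BG only in the fit without siUSP9X replicate 2.

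**Figure D2:**
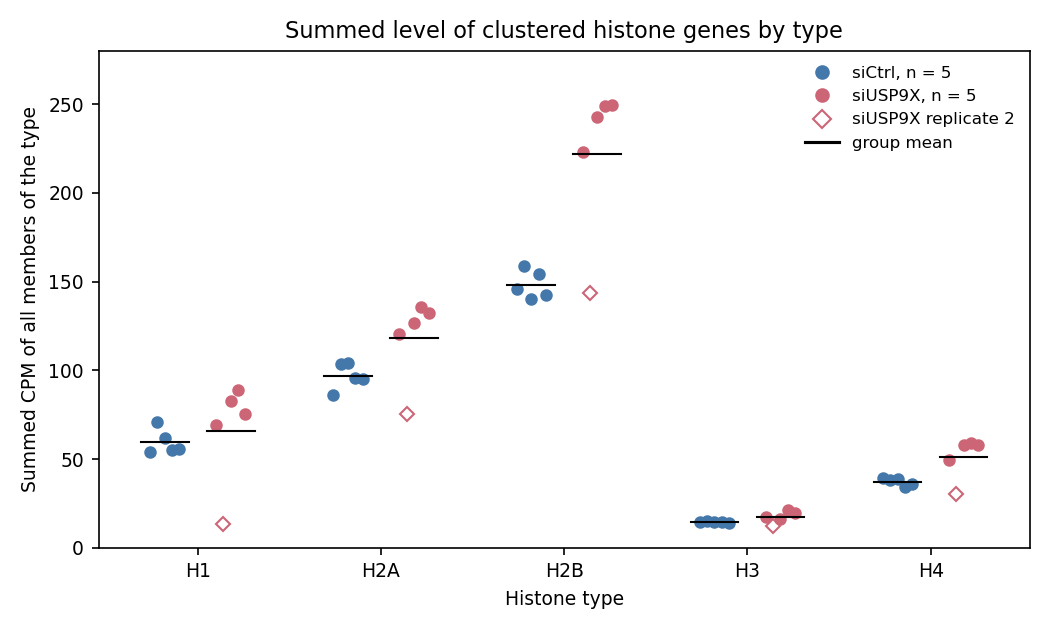
Summed CPM of all clustered histone genes of each type in each of the 10 libraries (points), with group means (lines); the open diamond is siUSP9X replicate 2. For H2B the 4 other siUSP9X libraries lie at 223 to 249 CPM and the siCtrl libraries at 140 to 159 CPM.

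By type, H2B held the most counts and 4 of the 6 genes that rose. Its 23 genes summed to 146, 159, 140, 154 and 143 CPM in siCtrl and 223, 144, 243, 249 and 249 CPM in siUSP9X. Replicate 2 fell within the siCtrl range and the other 4 siUSP9X libraries lay above it. H2A summed to 97.0 ± 7.47 CPM in siCtrl and 118 ± 24.6 CPM in siUSP9X, or 129 ± 6.67 CPM without replicate 2. H4 went from 37.2 ± 2.01 CPM to 50.9 ± 12.2 CPM, or 56.1 ± 4.52 CPM without it, and H3 from 14.5 ± 0.36 CPM to 17.4 ± 3.48 CPM, or 18.6 ± 2.42 CPM. H1, nearly all of it HIST1H1C, went from 59.5 ± 7.15 CPM to 66.1 ± 30.3 CPM, or 79.2 ± 8.57 CPM. Replicate 2 was below all siCtrl libraries for H1, H2A, H3 and H4. These sums carry no test.

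H2B pairs with H2A to form the dimers that flank the H3-H4 tetramer of a nucleosome. Of the 15 tested H2B genes, 4 rose and 11 did not pass, with a median log2 fold change of 0.482. The 11 include HIST2H2BC and HIST2H2BD, annotated as pseudogenes, whose highest library was siUSP9X replicate 2. Both also enter the H2B sums above. Without siUSP9X replicate 2, 8 of the 15 rose. The shares over all tested genes were 4.09% with all libraries and 11.9% without replicate 2.

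HIST1H2BC (ENSG00000180596.7, chr6:26114873-26123926, minus strand) is one of the genes known to give poly(A) mRNA, and its annotated stem-loop is followed by 116 bases. The gene also has an annotated transcript of 659 bases without the stem-loop. It measured 6.01, 6.20, 6.13, 5.90 and 4.45 CPM in siCtrl and 11.0, 7.85, 9.66, 7.94 and 10.3 CPM in siUSP9X. The lowest siUSP9X library stood above the highest siCtrl library. This gave a log2 fold change of 0.70 ± 0.15 (SE) with an edgeR adjusted p of 0.0172, and 0.76 ± 0.14 without replicate 2.

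HIST2H2BE (ENSG00000184678.10, chr1:149884459-149886652, minus strand), an H2B gene of the HIST2 cluster, has 1729 annotated bases after its stem-loop. Its level was 20.5, 21.0, 13.3, 18.9 and 17.6 CPM in siCtrl and 27.7, 19.2, 29.8, 30.7 and 30.7 CPM in siUSP9X. Replicate 2 alone fell among the siCtrl values. The log2 fold change was 0.60 ± 0.16 (edgeR adjusted p = 0.0492), and 0.70 ± 0.11 without replicate 2.

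HIST1H2BG (ENSG00000273802.2, chr6:26215159-26216692, minus strand) had 5.59, 5.88, 4.16, 5.79 and 4.13 CPM in siCtrl and 8.81, 5.70, 9.66, 8.99 and 7.20 CPM in siUSP9X. Again replicate 2 overlapped with siCtrl and the other 4 libraries did not. Its log2 fold change was 0.66 ± 0.18 (edgeR adjusted p = 0.0472), and 0.76 ± 0.15 without that library.

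HIST1H2BF (ENSG00000277224.2, chr6:26199520-26200715, plus strand) had the fewest counts of the H2B genes that rose, at 0.992, 0.539, 0.956, 0.529 and 0.371 CPM in siCtrl and 1.70, 1.16, 1.29, 1.42 and 1.97 CPM in siUSP9X. The groups did not overlap. It changed by 1.16 ± 0.30 on the log2 scale (edgeR adjusted p = 0.0408), and by 1.24 ± 0.31 without replicate 2.

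HIST1H2BK (ENSG00000197903.7, chr6:27146418-27146798, minus strand), the clustered histone gene with the most counts and the highest level per annotated kb of those named above, did not pass. Its level was 60.5, 73.1, 62.0, 69.6 and 61.8 CPM in siCtrl and 110, 49.5, 124, 130 and 132 CPM in siUSP9X. The 4 siUSP9X libraries other than replicate 2 lay far above siCtrl and replicate 2 lay below it. With all libraries its log2 fold change was 0.74 ± 0.22 (edgeR adjusted p = 0.0672) and, without replicate 2, 0.92 ± 0.083 (adjusted p = 4.46e-07).

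HIST1H2BD, another known source of poly(A) H2B mRNA, had a log2 fold change of 0.33 ± 0.14 (edgeR adjusted p = 0.157), and 0.44 ± 0.090 without replicate 2 (adjusted p = 0.00168). HIST1H2BE, with mean levels of 0.871 and 1.63 CPM, did not overlap between groups but did not pass (log2 fold change 0.91 ± 0.28, edgeR adjusted p = 0.0707; 0.82 ± 0.30 and 0.0537 without replicate 2), and its exons overlap those of AL353759.1. At the other end, HIST1H2BH had 5.83 ± 1.13 CPM in siCtrl against 5.74 ± 1.41 CPM in siUSP9X, and HIST1H2BO 0.567 ± 0.172 against 0.505 ± 0.247 CPM (SD, n = 5 each). Their log2 fold changes were -0.02 ± 0.20 and -0.18 ± 0.39.

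Of the 7 tested H2A genes 2 rose, with a median log2 fold change of 0.312, and without siUSP9X replicate 2 4 rose. The shares over all tested genes were 4.09% and 11.9%. HIST1H2AG (ENSG00000196787.3, chr6:27133042-27135291, plus strand), with 1761 annotated bases after its stem-loop, had the smallest SE of the 33 genes. It measured 9.66, 9.49, 10.4, 9.76 and 9.95 CPM in siCtrl and 16.0, 12.5, 14.7, 13.7 and 13.6 CPM in siUSP9X. The groups were apart in every library, replicate 2 included. Its log2 fold change was 0.52 ± 0.10 (edgeR adjusted p = 0.0153), and 0.56 ± 0.10 without replicate 2.

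HIST1H2AI (ENSG00000196747.4, chr6:27808199-27808701, plus strand) showed the largest log2 fold change of the 33, at low counts, and is the gene that rose whose annotation ends soonest after the stem-loop, after 39 bases. It had 0.836, 0.701, 1.35, 0.681 and 0.900 CPM in siCtrl and 1.94, 4.04, 2.23, 1.48 and 1.39 CPM in siUSP9X. Replicate 2 was here the highest library and the groups still did not overlap without it. The log2 fold change was 1.32 ± 0.34 (edgeR adjusted p = 0.0379), and 0.99 ± 0.28 without replicate 2 (adjusted p = 0.0149).

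HIST1H2AC (ENSG00000180573.9, chr6:26124145-26139116, plus strand), the H2A gene with the most counts, had 58.0, 67.8, 68.0, 62.6 and 63.5 CPM in siCtrl and 80.1, 49.5, 82.8, 91.0 and 93.6 CPM in siUSP9X. Replicate 2 was the lowest of the 10 libraries and the other 4 the highest. Its log2 fold change was 0.31 ± 0.16 (edgeR adjusted p = 0.213), and 0.44 ± 0.079 without it (adjusted p = 0.000621). HIST3H2A, of the chromosome 1 cluster HIST3, went from 15.4 ± 2.14 CPM to 14.7 ± 5.19 CPM (SD, n = 5 each), and to 16.9 ± 2.29 CPM without replicate 2, and passed in neither fit.

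**Figure D3:**
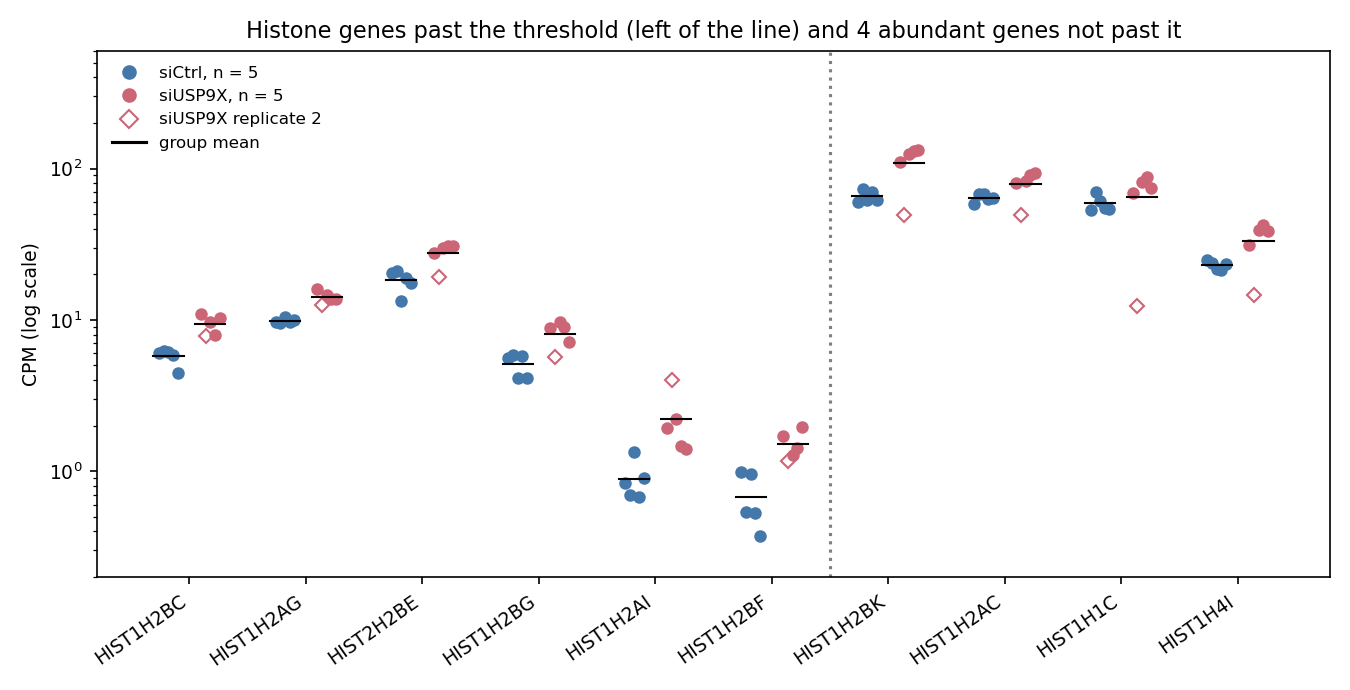
CPM (log scale) in each library for the 6 histone genes past the threshold and for HIST1H2BK, HIST1H2AC, HIST1H1C and HIST1H4I, which were not past it; lines are group means and the open diamond is siUSP9X replicate 2. In the 4 genes on the right the diamond lies below the siCtrl points, for HIST1H1C at 12.3 CPM.

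H4 and H3 genes gave no call with all 10 libraries. Of the 7 tested H4 genes (median log2 fold change 0.171), HIST1H4I (ENSG00000276180.1, chr6:27138588-27139881, plus strand) had the most counts. It measured 24.7, 23.9, 21.5, 21.3 and 23.3 CPM in siCtrl and 31.1, 14.5, 39.2, 42.5 and 38.7 CPM in siUSP9X. Once more only replicate 2 lay below siCtrl. The log2 fold change was 0.53 ± 0.23 (edgeR adjusted p = 0.164), and 0.72 ± 0.098 without replicate 2 (adjusted p = 4.45e-05).

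HIST1H4H did not overlap between groups, with 7.36 to 9.34 CPM in siCtrl and 9.68 to 12.1 CPM in siUSP9X, and missed the threshold with all libraries (log2 fold change 0.42 ± 0.12, edgeR adjusted p = 0.055). Without replicate 2 it rose (0.46 ± 0.12, adjusted p = 0.00733). HIST4H4, the only one of the 76 genes on chromosome 12, had the lowest log2 fold change of the 33, -0.26 ± 0.24 (adjusted p = 0.473), and -0.16 ± 0.26 without replicate 2. HIST1H4E stood at 1.21 ± 0.331 and 1.20 ± 0.467 CPM. Of the 3 tested H3 genes, HIST1H3H had a log2 fold change of 0.44 ± 0.16 (adjusted p = 0.110; 0.51 ± 0.14 and 0.016 without replicate 2) and HIST1H3G one of 0.08 ± 0.18.

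HIST1H1C (ENSG00000187837.3, chr6:26055787-26056428, minus strand) was the only tested gene of the linker histone H1, which binds the DNA between nucleosomes. It had 53.6, 69.9, 61.1, 54.9 and 54.3 CPM in siCtrl and 68.4, 12.3, 81.3, 88.0 and 74.0 CPM in siUSP9X. Replicate 2 was far below all others, and siUSP9X replicate 1 also lay within the siCtrl range. The log2 fold change was 0.14 ± 0.38 (edgeR adjusted p = 0.821), and 0.41 ± 0.096 without replicate 2 (adjusted p = 0.00515).

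**Figure D4:**
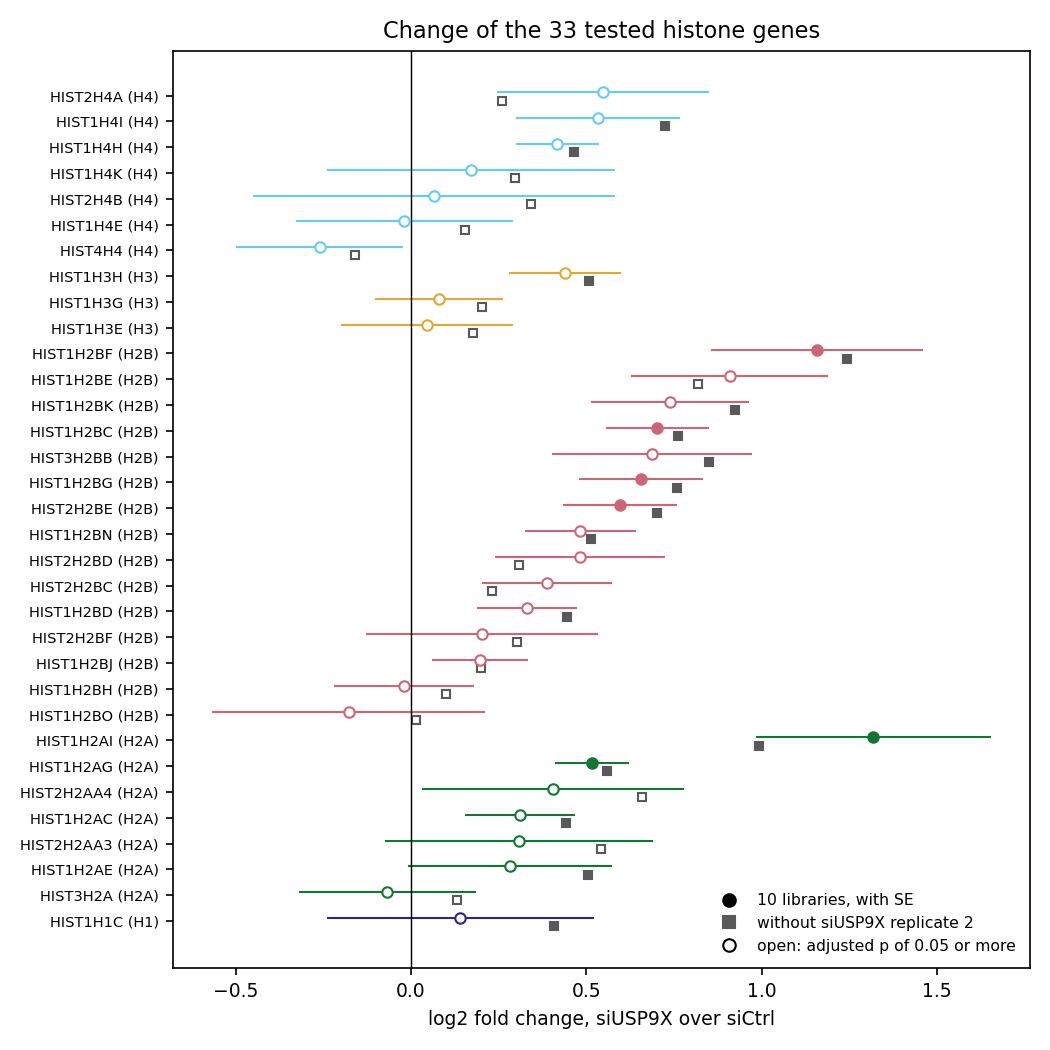
Log2 fold change, siUSP9X over siCtrl, of the 33 tested histone genes by type, from all 10 libraries (circles, with SE) and without siUSP9X replicate 2 (squares); filled symbols passed an adjusted p of 0.05. 6 circles and 16 squares are filled, all to the right of 0.

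The 6 genes known from other work to give poly(A) mRNA, HIST1H1C, HIST1H2AC, HIST1H2BC, HIST1H2BD, HIST1H2BK and HIST2H2BE, had a median log2 fold change of 0.463, and 2 of the 6 rose. Without siUSP9X replicate 2 all 6 rose, with a median of 0.572. By annotated end, 5 of the 23 tested genes with a long run past the stem-loop rose, 1 of the 5 with a short run, and 0 of the 5 with no annotated stem-loop. Without replicate 2 these counts were 11, 3 and 2. Over all tested genes 4.09% rose with all libraries and 11.9% without replicate 2.

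The 31 genes counted but not tested held 466 counts in siCtrl and 468 in siUSP9X (97 of them in replicate 2), summed over the 5 libraries of each group, and none exceeded 68 in a group. They include 10 of the 15 H3 genes. Some copies are too alike for reads to be assigned with certainty, among them HIST2H4A and HIST2H4B, HIST2H2AA3 and HIST2H2AA4, and HIST2H3A and HIST2H3C. The separate values of these copies are uncertain. HIST1H2AI and HIST1H2AJ, and HIST1H4J and HIST1H4K, have nearly the same bases before their starts. How alike the transcripts of these and other members are was not tested, so their values may carry the same doubt. The HIST2H4A level in siUSP9X replicate 2 was 1.83 CPM, its highest, where HIST2H4B was at 0.332 CPM, its lowest. With the copies of each of the HIST2 pairs summed, the same number of genes rose, 6. Exons of 18 of the 76 genes overlap those of another gene, 7 of them tested and none of them called with all libraries. Without siUSP9X replicate 2, 1 of the 7 is among the 16 that rose, HIST1H2BN (log2 fold change 0.51 ± 0.18, edgeR adjusted p = 0.0476), whose exons overlap those of HIST1H2AL on the same strand and HIST1H2AK on the other. The kit keeps strand, but no source used here says whether the counting used it.

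H2A and H2B genes often lie head to head and share the DNA between their starts. There were 13 such neighbouring pairs, 124 to 331 bases apart, and 1 pair of an H2B and an H3 gene, HIST1H2BO and HIST1H3J, 357 bases apart. HIST1H2AC and HIST1H2BC, 219 bases apart, had point estimates of 0.31 and 0.70 on the log2 scale, and the latter rose. HIST1H2AG and HIST1H2BJ, 292 bases apart, had 0.52 and 0.20, and the former rose. HIST1H2AE and HIST1H2BG, 283 bases apart, had 0.28 and 0.66, and the latter rose. HIST3H2A and HIST3H2BB, 234 bases apart, had -0.07 and 0.69, and neither passed. In the pairs of HIST2H2BE, HIST1H2BF and HIST1H2AI, which rose, the partners HIST2H2AC, HIST1H2AD and HIST1H2BL had too few counts to be tested. In no pair did both genes pass with all libraries. Both genes passed in 2 pairs without siUSP9X replicate 2, HIST1H2AC with HIST1H2BC and HIST1H2AE with HIST1H2BG. Whether partners differ from each other was not tested.

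RefSeq promoters (GRCh38.p14, 250 bases before to 50 after the start) were matched for 60 of the 76 genes, 3 of the 6 that rose among them. The motifs searched on both strands were TATAAA, the TATA box, CCAAT, and ATTTGCAT, the octamer that the factor POU2F1 (OCT1) binds. TATAAA was in 66.7% of the 60 and in 11.5% of all 35116 promoters in the table. CCAAT was in 83.3% and 34.6%, and ATTTGCAT in 33.3% and 1.77%. The octamer was in 11 of 16 H2A and 9 of 13 H2B promoters and in none of the H1, H3 and H4 promoters. CCAAT was in every H1, H2A, H2B and H3 promoter matched and in 3 of 13 H4 promoters. Windows of head-to-head partners overlap, so these counts are not independent. The 120 bases before the start are shown for the 3 matched genes that rose and for HIST1H2BK, 5′ to 3′ on the gene's strand, with matches on either strand in capitals.
HIST2H2BE, chr1:149886683-149886802, minus strand: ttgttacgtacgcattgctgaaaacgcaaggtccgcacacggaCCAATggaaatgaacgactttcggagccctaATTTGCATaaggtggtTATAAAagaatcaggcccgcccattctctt
HIST1H2BK, chr6:27146856-27146975, minus strand: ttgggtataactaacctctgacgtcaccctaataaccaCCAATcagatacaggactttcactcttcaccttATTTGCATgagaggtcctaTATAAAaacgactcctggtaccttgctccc
HIST1H2AG, chr6:27132923-27133042, plus strand: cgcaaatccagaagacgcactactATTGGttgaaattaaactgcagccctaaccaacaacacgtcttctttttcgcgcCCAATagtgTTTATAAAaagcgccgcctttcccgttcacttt
HIST1H2AI, chr6:27808053-27808172, plus strand: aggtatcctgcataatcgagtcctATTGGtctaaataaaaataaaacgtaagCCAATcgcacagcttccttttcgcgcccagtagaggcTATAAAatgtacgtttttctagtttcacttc

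In both H2B promoters CCAAT, the octamer and TATAAA follow in that order towards the start. The octamer counted for HIST1H2AG lies outside the bases shown, where its window overlaps that of its head-to-head partner HIST1H2BJ. The same match stands before the start of HIST1H2BJ. The window of HIST1H2AI has no match to the octamer. In HIST1H2AG, TATAAA and its complement TTTATA overlap. A match is only a description of the letters. Among tested genes with a matched promoter, the octamer was in 2 of the 3 that rose and in 7 of the 24 that did not pass. The match before HIST1H2BJ enters both counts, by the window of HIST1H2AG and by that of HIST1H2BJ, which did not pass. All 3 that rose are H2A or H2B genes, while the 24 include H1, H3 and H4 genes, whose matched promoters held no octamer. The 2 shares therefore differ in histone type, and whether the octamer goes with the rise was not tested.

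Of the 8 listed genes that drive histone transcription, 1 rose and none fell. Without siUSP9X replicate 2, 1 rose and 1 fell, CCNE2 (log2 fold change -0.46, edgeR adjusted p = 0.013). Over all genes 4.09% rose and 3.22% fell with all libraries, and 11.9% and 11.5% without replicate 2. A single call in so short a list is a value of that gene, not of the list. CCNE1, the cyclin that activates CDK2 at the start of S phase, went from 21.6 ± 1.71 CPM to 29.8 ± 4.05 CPM (0.46 ± 0.12 on the log2 scale, edgeR adjusted p = 0.0403), and changed by 0.55 without replicate 2. NPAT, the CDK2 target that coactivates histone genes, did not pass. Its level was 31.6 ± 4.59 CPM in siCtrl and 49.9 ± 29.1 CPM in siUSP9X, 101 CPM of it in replicate 2, and its log2 fold change of 0.66 ± 0.30 became 0.24 without that library.

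Of 11 genes of histone mRNA 3′ processing, SLBP fell and none rose. SLBP went from 89.6 ± 2.76 CPM to 70.6 ± 3.84 CPM (-0.34 ± 0.085 on the log2 scale, edgeR adjusted p = 0.0337), with 86.6 to 92.7 CPM in siCtrl and 64.9 to 74.5 CPM in siUSP9X. Its groups did not overlap and its log2 fold change was -0.31 without replicate 2, where 4 genes of the list fell, against 11.5% over all genes. No gene of 8 in histone mRNA translation and decay passed with all libraries, and at an unadjusted p 1 was higher and 2 were lower. Without siUSP9X replicate 2, 2 of the 8 rose, CTIF and TUT7, and 1 fell, MIF4GD. The shares over all genes were then 11.9% and 11.5%.

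Of 16 histone chaperones, which carry histones to DNA, 1 rose and 1 fell, close to the 4.09% and 3.22% over all genes. Without siUSP9X replicate 2, 2 rose and 2 fell, against 11.9% and 11.5% over all genes. ASF1A, which hands H3-H4 to the assembly factors, went from 14.5 ± 1.89 CPM to 23.7 ± 4.67 CPM (0.71 ± 0.15 on the log2 scale, edgeR adjusted p = 0.0188), and changed by 0.59 without replicate 2. SSRP1, a subunit of the chaperone FACT, went from 481 ± 17.5 CPM to 389 ± 11.2 CPM (-0.31 ± 0.079, adjusted p = 0.0394). Of 11 tested genes of histone variants made outside S phase, H2AFV, a gene of the H2A.Z variant, fell (log2 fold change -0.34 ± 0.089, edgeR adjusted p = 0.0419), and none rose. Without siUSP9X replicate 2, H3F3A rose and H2AFZ and H2AFV fell, where 11.9% of all tested genes rose and 11.5% fell. With 1 library left out, CCNE1, SLBP, SSRP1 and H2AFV passed only in the fit without siUSP9X replicate 2, with adjusted p up to 0.11 in the others, and ASF1A passed in 7 of 10, all but those without siCtrl replicate 3, 4 or 5.

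Of 23 genes of S phase, the phase in which the clustered histone genes are used, 10 fell and none rose, with a median log2 fold change of -0.437, where 3.22% of all tested genes fell. Without siUSP9X replicate 2, 15 fell and none rose, while the share over all genes rose to 11.5%, and the other fits that left out 1 library gave 5 or more. GINS1, part of the replicative helicase, went from 83.0 ± 6.39 CPM to 39.0 ± 4.68 CPM (-1.09 ± 0.11 on the log2 scale, edgeR adjusted p = 0.000403; -1.03 without replicate 2). MCM3, another helicase subunit, and the loading factors CDC6 and CDT1 fell by 0.58, 0.57 and 0.75 on the log2 scale. These 4 passed in all 10 fits that left out 1 library. The summed level of the 23 genes was 3297 to 3640 CPM in siCtrl and 2702 to 2800 CPM in siUSP9X, so that the groups did not overlap and replicate 2, at 2800 CPM, was the highest siUSP9X library. Whether the direction of the histone genes differs from that of the S-phase genes was not tested.

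**Figure D5:**
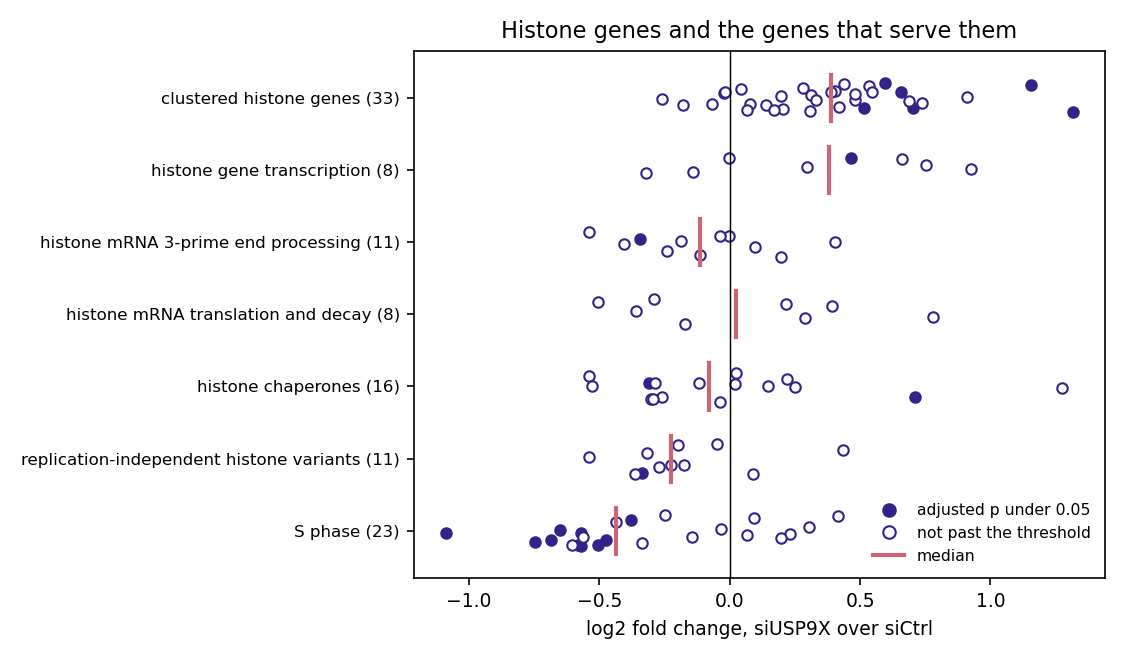
Log2 fold change, siUSP9X over siCtrl, of each tested gene (points; filled, adjusted p under 0.05) and the median (line) of the clustered histone genes and of 6 lists of related genes, with the number tested in parentheses. The median is 0.388 for the histone genes and -0.437 for the S-phase genes.

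Markers of other cell types were counted in the same fit. The 12 endothelial markers summed to 318 to 392 CPM in siCtrl and 157 to 363 CPM in siUSP9X, with 157 CPM in replicate 2. None of the 5 tested was called with all libraries. Without siUSP9X replicate 2, 2 of the 5 fell, where 11.5% of all tested genes fell. They were ENG (log2 fold change -0.39, edgeR adjusted p = 0.0019) and EGFL7 (-0.61, adjusted p = 0.0079). Of 7 epithelial markers 3 were tested, the keratins KRT8 and KRT18 fell (KRT8 kept its call in 3 of 10 fits with 1 library left out) and KRT5 and KRT14 were at 0. EPCAM did not pass with all libraries and fell without siUSP9X replicate 2 (log2 fold change -1.26, edgeR adjusted p = 0.034). The 7 epithelial markers summed to 3313 to 4173 CPM in siCtrl and 2029 to 2755 CPM in siUSP9X. Mural and fibroblast markers (6 of 7 found) summed to 2.56 to 3.97 and 2.27 to 4.31 CPM. The 6 neural and glial markers summed to 81.4 to 96.1 and 76.6 to 111 CPM. Nearly all of this was MBP, at 81.0 to 95.7 and 75.0 to 108.5 CPM. GFAP, AQP4 and RBFOX3 had at most 9 counts in a group and OLIG2 had 0. MAP2 had means of 0.729 and 1.75 CPM, did not pass with all libraries and rose without siUSP9X replicate 2. The 4 leukocyte markers summed to 0 and at most 0.117 CPM. The part of these lists in the histone levels was not tested.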

How the data were processed

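RNA-seq was read from 10 libraries, 5 siCtrl and 5 siUSP9X, grouped by treatment label. The deposited table holds whole-number counts per gene symbol, which the authors made from stranded mRNA libraries of TRIzol RNA, per the labels' protocols. The submitters' processing notes name RSEM, DESeq2 and hg38, giving neither versions nor roles. No source used here says if the counts are rounded RSEM estimates, which would split reads between like genes. No 2 libraries of a group agreed within sampling noise (chi-square per degree of freedom of 5.26 or more).

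The edgeR quasi-likelihood test (edgeR 4.0.16, R 4.3.3; robust, TMM, filterByExpr with a minimum count of 10, group as the only term) was fitted over the whole table, with two-sided p-values adjusted by Benjamini-Hochberg at a threshold of 0.05. It was tested on simulated data. SE is the log2 fold change divided by the square root of F. Alternatives were scaling by upper-quartile factors, DESeq2 size factors or library totals, no filter, 5 CPM in 5 libraries, DESeq2 1.42.0, limma-voom (limma 3.58.1), the replicate block, a threshold of 0.01 and each library left out. Summing near-identical copies, and the counts of lists and of libraries that do not overlap without siUSP9X replicate 2, were added after the data were seen.

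The genes named were those past the threshold, the 2 of each type with the highest mean CPM, the 5 largest rises and falls, the 6 known for poly(A) mRNA, up to 4 calls per list, SLBP, NPAT and USP9X; others were named after their values were seen. The members and lists were chosen with earlier results of these data known. Coordinates and transcripts are from GENCODE 29 (GRCh38), promoters from RefSeq (GRCh38.p14).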

Additional observations from a re-analysis of the deposited data

Results flagged for a closer look

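In groups of 5 libraries, 5 of 42 group values had 1 library far from the other 4, by Dixon's test at its 95% critical value; chance gives about 1 in 20 such groups. In siUSP9X replicate 2 this held for HIST1H2BK at 49.5 CPM (the other 4 at 110 to 132 CPM), HIST1H1C at 12.3 CPM (68.4 to 88.0 CPM), HIST2H2BE at 19.2 CPM (27.7 to 30.7 CPM) and the summed level of all 76 histone genes at 275 CPM (480 to 554 CPM). In siCtrl replicate 5 it held for HIST1H2BC at 4.45 CPM, where the other 4 had 5.90 to 6.20 CPM. The 4 values in siUSP9X replicate 2 come from 1 library and are not independent.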

How the results depend on the processing

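No clustered histone gene was called lower under any alternative run. The number called higher, 6, was 6 with DESeq2 size factors, 4 with upper-quartile factors, library totals or limma-voom, 5 with the filter of 5 CPM, 10 with DESeq2, 2 with no filter on low counts and 0 at a threshold of 0.01. Leaving out each library gave 2 to 16. The corresponding counts over all genes, 570 higher and 449 lower, were 1264 and 1078 with DESeq2, 102 and 136 at 0.01, and 170 to 1674 and 189 to 1620 with 1 library left out. No scaling moved the median log2 fold change of all genes by over 0.1. The cause of these changes was not tested, except that a stricter threshold calls fewer genes by construction. HIST1H1C turned to -0.126 with limma-voom and -0.0305 with the replicate block. With 1 library left out, log2 fold changes that crossed 0 ranged from -0.20 to 0.13 for HIST3H2A, -0.14 to 0.10 for HIST1H2BH, -0.0353 to 0.20 for HIST1H3G, -0.24 to 0.15 for HIST1H4E and -0.42 to 0.0132 for HIST1H2BO. With the replicate number as a block, 0 histone genes were called in either direction, and 34 genes higher and 57 lower over the table. Same-numbered libraries had correlations of -0.419 to 0.228, and 1 of 5 siCtrl libraries correlated best with its own number, so the numbers were not taken to pair the libraries. Genes under about 10 counts a library were too shallow to test.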

Other observations

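Among the 31 histone genes counted but not tested, some stood at different levels in the pooled counts; they were chosen after their values were seen. Exact Poisson intervals at 95% follow each CPM. HIST1H3F had 39 siCtrl counts (0.387 CPM, 0.275 to 0.529) and 10 siUSP9X counts (0.117 CPM, 0.056 to 0.215). HIST2H2AC, the head-to-head partner of HIST2H2BE, had 68 counts (0.675 CPM, 0.524 to 0.855) and 32 (0.374 CPM, 0.255 to 0.527). In the other direction, HIST1H1E, a linker histone gene, had 29 counts (0.288 CPM, 0.193 to 0.413) and 62 (0.724 CPM, 0.555 to 0.928), and HIST1H4C had 20 (0.198 CPM, 0.121 to 0.306) and 46 (0.537 CPM, 0.393 to 0.716). Of these 46 counts of HIST1H4C, 31 came from siUSP9X replicate 2, and the other 4 siUSP9X libraries held 15 (0.222 CPM, 0.124 to 0.366), a level whose interval covers that of siCtrl. Without that library HIST1H3F stood at 0.148 CPM (0.0709 to 0.272), HIST2H2AC at 0.370 CPM (0.239 to 0.546) and HIST1H1E at 0.681 CPM (0.498 to 0.908) in siUSP9X. The intervals cover counting error only. In the edgeR fit with no filter on low counts, adjusted p was 0.226 for HIST1H3F, 0.329 for HIST2H2AC, 0.303 for HIST1H1E and 0.455 for HIST1H4C, so none of the 4 passed.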
